A study of Homo sapiens with 4 samples.

Results

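The genes for SR proteins and heterogeneous nuclear ribonucleoproteins (hnRNPs) were followed after knockdown of FAM49B in OVCAR8, a long-established line of human ovarian cancer cells. Members were all protein-coding rows of the deposited gene table whose symbol is SRSF followed by a number, or starts with HNRNP and a letter. That rule took 39 of 58735 genes, 12 SRSF genes and 27 hnRNP genes, and used no measured value. Both groups were OVCAR8 cells grown in RPMI-1640 with fetal bovine serum. The group shCON received a scrambled hairpin vector and is labelled WT, and the group shFAM49B received hairpin vectors against FAM49B. Each group has 2 libraries, numbered 1 and 2. Per the labels' protocols the hairpin plasmids were transfected transiently and cells were collected after 36 h, whereas the series' design text calls the knockdown stable. The sources used here do not give the hairpin sequences, any selection of transfected cells or the origin of the replicates, so p-values measure the spread between these libraries, which may be technical.

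SR proteins bind exons through RNA recognition motifs and use an arginine-serine-rich tail to recruit the splicing machinery, which generally favours inclusion of the bound exon. hnRNPs coat nascent transcripts, and several of them, such as hnRNP A1, oppose SR proteins at exons, so the balance of the families sets many splice choices. Both families control their own messages by switching to transcripts that are degraded or kept in the nucleus, and SRSF1, SRSF3, SRSF6 and HNRNPA1 are known for raised levels in tumours.

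Levels are FPKM, reads per kilobase of gene divided by a scaling factor that the authors used for each library. That factor is not plain depth but equals the factor computed from median ratios of gene reads between the libraries. Whole reads could be recovered for every value, and came to between 15639559 and 16875353 per library. With the authors' factors, 3 reads per kilobase correspond to 0.162 to 0.200 FPKM. FAM49B, the targeted gene, stood at 7.41 and 7.60 FPKM in shCON and at 1.06 and 1.02 in shFAM49B, 7.21-fold lower. The log2 fold change of FPKM + 1 was −2.06 (limma adjusted p = 0.000540). The groups differ widely outside splicing genes as well. Summed FPKM of 7 keratin and stratified epithelial markers was 510 to 571 in shCON and 34.5 to 37.8 in shFAM49B, with all 7 lower. Of 9 ovarian and Müllerian epithelial markers, PAX8, MUC16, KRT7 and MSLN were below 1 FPKM in every library, 3 of the 5 tested fell, and the sum went from 121 to 128 down to 64.9 to 65.7. Of 8 heat shock genes 6 rose and 1 fell, with sums of 626 to 673 in shCON and 1025 to 1034 in shFAM49B. Among all tested genes, 26.4% were called higher and 15.8% lower. EPCAM and TP63 passed the filter of a mean of 1 FPKM over the 4 libraries only through shCON. HSPA6 passed it only through shFAM49B, so the calls of these genes depend on that filter. With each library rescaled to the same total (TPM), HSP90AA1 and HSPA1A did not pass, and KRT8, WT1 and HSPH1 were also called lower. Summed markers of leukocytes lay between 1.13 and 1.66 FPKM, of endothelium between 0.190 and 0.479 and of fibroblasts between 6.27 and 6.96, the last mostly COL1A1, and no marker on any list was at 0 in all 4 libraries. The part of these shifts in the splicing results was not tested. The labels do not say whether the groups came from the same culture, so in every comparison the knockdown cannot be told apart from other differences between cultures or clones. In bulk RNA, fewer cells of a type and less RNA per cell cannot be told apart.

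Some members are copies of others, either near-identical (HNRNPA1P48 and HNRNPA1L2 to HNRNPA1) or diverged (SRSF8 to SRSF2). Coding bases of 2 pairs are shown because the values of near-identical copies depend on which reads were assigned to them. Sequences are from GENCODE 29 on GRCh38, written 5′ to 3′ as 90 coding bases each, and capitals mark the bases of the copy that differ from its relative.
HNRNPA1, from coding base 136: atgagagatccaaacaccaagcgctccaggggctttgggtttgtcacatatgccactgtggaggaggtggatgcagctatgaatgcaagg
HNRNPA1P48, from its start codon: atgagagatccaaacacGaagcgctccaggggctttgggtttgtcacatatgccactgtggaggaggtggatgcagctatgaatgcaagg
SRSF2, from its start codon: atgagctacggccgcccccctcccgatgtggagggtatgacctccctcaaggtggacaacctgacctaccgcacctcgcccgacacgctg
SRSF8, from its start codon: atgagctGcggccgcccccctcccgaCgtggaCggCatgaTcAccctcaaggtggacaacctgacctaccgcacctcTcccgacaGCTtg
Over the whole coding sequence, HNRNPA1L2 differed from HNRNPA1 at 15 of 963 bases, an identity of 98.4%. HNRNPA1P48, annotated as protein coding despite its pseudogene name, matched bases 136 to 963 of HNRNPA1 with 6 differences in 828 bases (99.3%). SRSF2 and SRSF8 were 69.3% identical over the aligned coding sequence, with 10 differences in the 90 bases shown. How the counting treated reads that fit several genes is not given in the sources used here, so HNRNPA1L2 and HNRNPA1P48 are uncertain throughout.

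All 12 SRSF genes were expressed above a mean of 1 FPKM over the 4 libraries and were tested. In shFAM49B, 5 of them fell, 3 rose and 4 did not pass (limma on log2 of FPKM + 1, adjusted p under 0.05 over 13775 genes). The background for those counts is 15.8% of all tested genes lower and 26.4% higher. Statements below that groups do not overlap only describe 2 libraries against 2, and the share of all tested genes without overlap is not given. The median log2 fold change over the SRSF genes was −0.12, against 0.05 over all tested genes. Rescaling each library to TPM, which gives every library the same total of length-scaled values, shifted changes downward, so that the median over all tested genes became −0.17. On that scale 7 SRSF genes were lower and 1 higher, with a median of −0.37, and the background was 31.7% of genes lower and 11.6% higher. FPKM per recovered reads and quantile normalization also moved the SRSF median downward, so lower calls were easier to keep than higher calls. Over both families, 9 of 9 lower calls held in all scalings, against 3 of 12 higher calls. SRSF2, SRSF5, SRSF6, SRSF8 and SRSF10 were called lower, and SRSF4 higher, as deposited, in each of 3 other scalings and without each library in turn.

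SRSF4, SRSF5 and SRSF6 are closely related SR proteins with a pair of RNA recognition motifs, and they moved in opposite directions. SRSF6 (chr20:43457928-43464247, plus strand) is a regulator of alternative exons in many transcripts and had the highest shCON level of the family. It was at 58.0 and 59.3 FPKM in shCON and at 30.9 and 29.8 in shFAM49B. Both shFAM49B libraries lay far below both controls, with the pairs of replicates close together. The level was 1.93-fold lower, a log2 fold change of −0.93 (95% confidence interval −1.07 to −0.79, limma adjusted p = 0.00119).

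SRSF5 (chr14:69726900-69772005, plus strand), an SR protein that responds to growth and stress signals, was at 29.5 and 31.6 FPKM in shCON and 19.7 and 19.2 in shFAM49B. The groups did not overlap and the log2 fold change was −0.62 (limma adjusted p = 0.00246). SRSF4 (chr1:29147743-29181987, minus strand), the longest of these SR proteins, went the other way. Its level was 13.4 and 14.0 FPKM in shCON and 25.1 and 23.9 in shFAM49B, 1.78-fold higher. The log2 fold change was 0.79 (95% confidence interval 0.64 to 0.94, limma adjusted p = 0.00174), and 0.58 on the TPM scale.

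The order of these related genes therefore changed within each library. SRSF6 exceeded SRSF4 by 4.32 and 4.24 times in the shCON libraries and by 1.23 and 1.25 times in the shFAM49B libraries. SRSF5 exceeded SRSF4 by 2.20 and 2.25 times in shCON, and stood at 0.788 and 0.806 of it in shFAM49B. The ratio of SRSF6 to SRSF5, the pair that fell together, moved less, from 1.97 and 1.88 to 1.57 and 1.55. Such ratios within a library do not depend on a scaling factor applied to the whole library. Quantile normalization is not such a factor and can change them. The coding sequences of SRSF4 and SRSF6 were 54.3% identical when aligned.

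**Figure D1:**
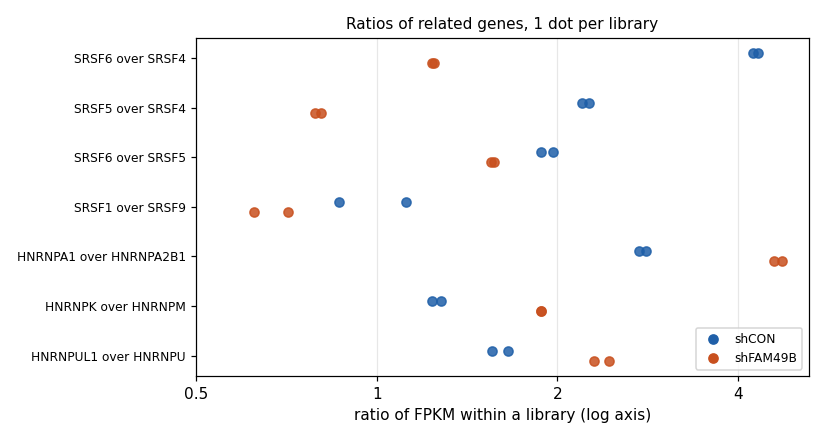
Ratio of FPKM of related genes within each library on a log axis, with 1 dot per library (blue shCON, orange shFAM49B). SRSF6 over SRSF4 drops from above 4 to near 1.2 and SRSF5 over SRSF4 from above 2 to below 1, whereas HNRNPA1 over HNRNPA2B1 climbs from 2.73 and 2.81 to 4.59 and 4.74.

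SRSF2 and SRSF8 both fell. SRSF2 (chr17:76734115-76737374, minus strand), an exon-binding SR protein recurrently mutated in blood cancers, was at 43.6 FPKM in each shCON library and at 29.3 and 27.9 in shFAM49B. Its log2 fold change was −0.59 (limma adjusted p = 0.00232). SRSF8 (chr11:95067197-95071224, plus strand), which arose as a retrotransposed copy of SRSF2, was at 12.6 and 13.0 FPKM in shCON and 6.96 and 5.86 in shFAM49B. It was 2.00-fold lower, with a log2 fold change of −0.90 (limma adjusted p = 0.00251). Both genes kept their shFAM49B libraries below the lower control. MFSD11, which overlaps SRSF2 on the opposite strand, changed by −0.09 on the log2 scale and missed the threshold (limma adjusted p = 0.525).

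SRSF10, SRSF11 and SRSF12 are a divergent branch, and SRSF10 is known as a repressor of splicing when dephosphorylated after heat shock. SRSF10 was at 20.4 and 21.3 FPKM in shCON and 16.3 and 14.9 in shFAM49B, without overlap, and fell by 0.40 on the log2 scale (limma adjusted p = 0.00867). SRSF11 had the smallest absolute change of the family as deposited, at 42.5 and 44.0 FPKM in shCON and 43.4 and 38.3 in shFAM49B. Its groups overlapped and the log2 fold change of −0.08 did not pass (95% confidence interval −0.28 to 0.11, limma adjusted p = 0.415). In TPM it was called lower, at −0.33 (limma adjusted p = 0.0349). SRSF12 was the least expressed SR gene, at 1.59 and 2.21 FPKM in shCON and 2.41 and 1.84 in shFAM49B, from 122 to 186 reads per library. Its groups overlapped too, and the 95% confidence interval of the log2 fold change ran from −0.30 to 0.51.

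SRSF3 and SRSF7 are small SR proteins that also link splicing to mRNA export. SRSF3 had the highest mean level of the family over all libraries, at 42.7 and 45.0 FPKM in shCON and 53.1 and 52.8 in shFAM49B. It rose by a log2 fold change of 0.27 (limma adjusted p = 0.0159), but on the TPM scale the change was 0.03 and did not pass, and under quantile normalization it was −0.003. Without shCON 1, shFAM49B 1 or shFAM49B 2 its adjusted p was 0.0759, 0.0681 and 0.0714. SRSF7, at 39.6 and 40.3 FPKM in shCON and 46.0 and 44.3 in shFAM49B, missed the threshold (limma adjusted p = 0.0524), and its log2 fold change of 0.17 turned to −0.07 in TPM.

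SRSF1, the founding SR protein and a known oncogene, was at 29.9 and 26.7 FPKM in shCON and 26.2 and 24.2 in shFAM49B. Its shCON replicates lay farther apart than the group means, and the log2 fold change of −0.16 did not pass as deposited (limma adjusted p = 0.163), though it did in TPM at −0.41 (limma adjusted p = 0.0171). SRSF9, its closest relative, was at 26.8 and 30.9 FPKM in shCON and 37.0 and 38.8 in shFAM49B, a log2 fold change of 0.38 (limma adjusted p = 0.0173). That call was lost in TPM, where the change was 0.15, and without shCON 1, shFAM49B 1 or shFAM49B 2 (limma adjusted p = 0.0587, 0.0553 and 0.0874). GATC overlaps SRSF9 on the opposite strand and also rose, by a log2 fold change of 0.45 (limma adjusted p = 0.0124). The labels do not state stranded counting, so reads in the shared part cannot be told apart. Both shFAM49B libraries had a lower ratio of SRSF1 to SRSF9, 0.709 and 0.624, than the controls, 1.12 and 0.864.

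**Figure D2:**
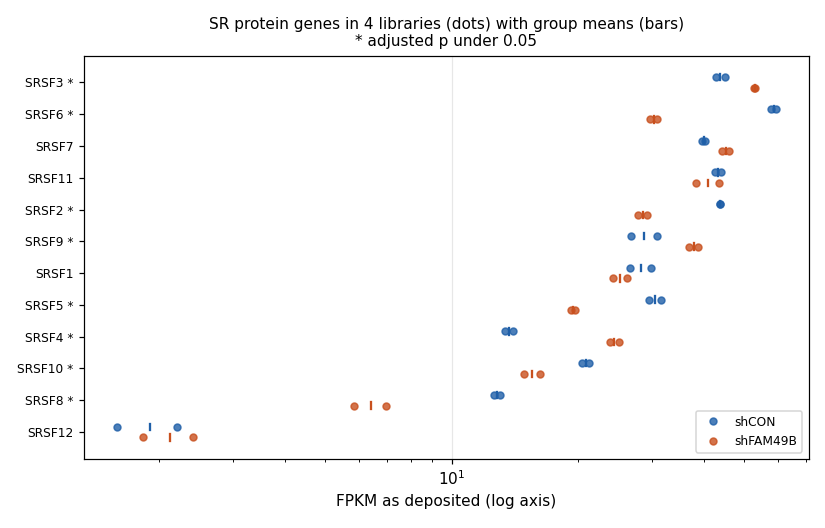
Deposited FPKM of the 12 SRSF genes on a log axis, ordered by mean level, with 1 dot per library, bars at group means (blue shCON, orange shFAM49B) and stars at genes with an adjusted p under 0.05. SRSF6, SRSF2, SRSF5, SRSF10 and SRSF8 have both orange dots left of the blue ones, SRSF4 has them to the right, and SRSF12 and SRSF11 overlap.

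Summed over the 12 genes, SRSF levels were 361 and 372 FPKM in shCON and 336 and 322 in shFAM49B. As a share of all FPKM in a library the family went from 0.144% and 0.150% to 0.116% and 0.107%, which is 1.32-fold lower. Both views have the shFAM49B libraries below the controls, and the share differs by more than the sum.

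Of the 27 hnRNP genes 22 were tested. The 4 genes HNRNPCL1 to HNRNPCL4, relatives of HNRNPC, had no read in any library. A count of 3 reads would have put them between 0.141 and 0.227 FPKM, so levels below that were not detectable at this depth. The read-through gene HNRNPUL2-BSCL2 had 1 read, in shCON 1. In shFAM49B 9 hnRNP genes rose, 4 fell and 9 did not pass, with a median log2 fold change of 0.08, against 26.4% of all tested genes higher and 15.8% lower. In TPM 3 were higher and 10 lower, with a median of −0.16, against 11.6% and 31.7%, so the balance of rises and falls in this family depended on the scaling. HNRNPA1 and HNRNPA1P48 were called higher, and HNRNPA1L2, HNRNPH2, HNRNPH3 and HNRNPM lower, under all 4 scalings. The lower calls were easier to keep there, since the other scalings shifted changes downward.

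HNRNPA1 (chr12:54280193-54287088, plus strand), an abundant repressor of exon inclusion, was the most highly expressed member. It was at 247 and 235 FPKM in shCON and at 420 and 417 in shFAM49B, from 21199 to 32765 reads per library. The groups were far apart beside the spread within each. The level was 1.74-fold higher, with a log2 fold change of 0.80 (95% confidence interval 0.65 to 0.94, limma adjusted p = 0.00167) and of 0.55 in TPM. Quantile normalization, which forces the libraries to equal distributions, left a change of 0.13. HNRNPA1 made up 18.2% and 17.8% of summed hnRNP FPKM in shCON and 25.4% and 25.1% in shFAM49B.

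HNRNPA2B1, its closest abundant relative and a regulator of many of the same exons, was at 87.7 and 85.8 FPKM in shCON and 91.4 and 88.1 in shFAM49B. Its log2 fold change of 0.05 did not pass (95% confidence interval −0.09 to 0.19, limma adjusted p = 0.506), and in TPM it was −0.20, which passed as lower. The HNRNPA1 to HNRNPA2B1 ratio was 2.81 and 2.73 in shCON and 4.59 and 4.74 in shFAM49B, with no overlap.

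The copies of HNRNPA1 did not move together. HNRNPA1P48 (chr16:51553436-51647132, plus strand) was at 6.53 and 6.01 FPKM in shCON and 10.8 and 13.1 in shFAM49B, with a log2 fold change of 0.83 (limma adjusted p = 0.00382). Its level stayed between 0.0257 and 0.0314 of HNRNPA1's in all 4 libraries, and with only 1 difference in the 90 bases printed above, reads of the 2 genes may not be separable. HNRNPA1L2 (chr13:52642425-52643796, plus strand), an intronless copy, was at 4.23 and 4.49 FPKM in shCON and 2.66 and 2.48 in shFAM49B, from 51 to 114 reads. It fell by 0.59 on the log2 scale (limma adjusted p = 0.00540), and from 0.0172 and 0.0192 of HNRNPA1's level to 0.00634 and 0.00595. The table also holds 74 rows named as HNRNPA1 pseudogenes. Their summed reads were 342 and 288 in shCON and 299 and 243 in shFAM49B, between 0.764% and 1.61% of those of HNRNPA1.

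HNRNPA3, an A-type protein close to hnRNP A2, was at 60.4 and 59.6 FPKM in shCON and 79.6 and 75.3 in shFAM49B, a log2 fold change of 0.36 (limma adjusted p = 0.00695). HNRNPAB, which binds both RNA and DNA, was at 137 and 140 FPKM and at 162 and 167. It rose by a log2 fold change of 0.25 (limma adjusted p = 0.0186). HNRNPD, the AU-rich element binding protein AUF1, was at 41.6 and 38.1 FPKM and at 54.5 and 53.3, with a log2 fold change of 0.43 (limma adjusted p = 0.00636). All 3 genes had both shFAM49B libraries above both controls. In TPM none of them passed, with changes of 0.12, 0.00451 and 0.19, and HNRNPAB turned to −0.22 under quantile normalization. HNRNPAB also missed the threshold without each library in turn, with limma adjusted p between 0.0534 and 0.110. HNRNPA0 and HNRNPDL, the remaining genes of this group, did not pass as deposited, at log2 fold changes of −0.12 and 0.07. In TPM HNRNPA0 was called lower, at −0.36.

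HNRNPC, which measures transcript length in early ribonucleoprotein particles and restrains use of Alu-derived exons, was at 100 and 104 FPKM in shCON and at 131 and 136 in shFAM49B. Its log2 fold change was 0.39 as deposited (limma adjusted p = 0.00569), 0.14 in TPM, where it did not pass, and −0.05 under quantile normalization. HNRNPK, a KH-domain protein that binds C-rich RNA and DNA, was at 124 and 118 FPKM and at 149 and 155. The log2 fold change of 0.33 passed (limma adjusted p = 0.00962). It did not pass in TPM at 0.08 or without shFAM49B 2 (limma adjusted p = 0.0656), and was −0.13 under quantile normalization. For both genes the shFAM49B libraries lay above the controls as deposited.

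HNRNPUL1, a relative of the scaffold protein hnRNP U, was at 77.7 and 74.9 FPKM in shCON and at 102 and 108 in shFAM49B. It rose by a log2 fold change of 0.45 (limma adjusted p = 0.00441) and also passed in TPM at 0.21, but not under quantile normalization at 0.11. TGFB1, which overlaps its end on the opposite strand, changed by 0.04 and did not pass (limma adjusted p = 0.704). HNRNPU itself was at 50.0 and 45.2 FPKM in shCON and 44.2 in each shFAM49B library, which did not pass as deposited (log2 fold change −0.10) and was called lower in TPM at −0.35. The ratio of HNRNPUL1 to HNRNPU was 1.55 and 1.66 in shCON and 2.30 and 2.44 in shFAM49B. HNRNPUL2 was low, between 4.33 and 5.91 FPKM, and its log2 fold change of −0.20 missed the threshold (limma adjusted p = 0.170). In TPM it was called lower, at −0.46.

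The hnRNP F and H proteins bind G-rich runs near splice sites, and their genes did not change alike. HNRNPF rose from 86.6 and 82.2 FPKM to 97.9 and 98.2, a log2 fold change of 0.21 (limma adjusted p = 0.0308). It was −0.03 in TPM, and it missed the threshold without each library in turn, with limma adjusted p between 0.0584 and 0.125. HNRNPH2 (chrX:101408295-101414133, plus strand) was at 41.4 and 39.3 FPKM in shCON and at 33.3 and 32.9 in shFAM49B, and fell by 0.27 on the log2 scale (limma adjusted p = 0.0153). HNRNPH3 was at 19.5 and 18.2 FPKM in shCON and 14.5 and 14.1 in shFAM49B, and fell by 0.38 (limma adjusted p = 0.00845). HNRNPH1 had overlapping groups, at 35.5 and 38.1 FPKM against 41.6 and 36.7. HNRNPH1 stood at 0.859 and 0.971 of HNRNPH2 in shCON and exceeded it by 1.25 and 1.11 times in shFAM49B. Their coding sequences were 87.8% identical.

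HNRNPM, which competes with epithelial splicing regulators at GU-rich sites and is linked to mesenchymal splice patterns, was at 99.9 and 92.7 FPKM in shCON and at 79.3 and 82.2 in shFAM49B. It fell by 0.25 on the log2 scale (limma adjusted p = 0.0273) and by 0.50 in TPM. Both HNRNPM and HNRNPH2 lost the call as deposited without shCON 1, shFAM49B 1 or shFAM49B 2. The limma adjusted p was then 0.110, 0.120 and 0.0881 for HNRNPM and 0.0769, 0.0590 and 0.0733 for HNRNPH2. HNRNPK exceeded HNRNPM by 1.24 and 1.28 times in shCON and by 1.88 times in each shFAM49B library.

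HNRNPL, HNRNPLL and HNRNPR, which bind CA repeats (L and LL) or act in RNA processing and transport (R), did not pass as deposited. HNRNPLL had the smallest absolute change of the tested hnRNP genes on that scale, at 9.93 and 9.65 FPKM in shCON and 9.39 and 10.3 in shFAM49B. Its groups overlapped, with a 95% confidence interval of −0.17 to 0.18 around a log2 fold change of 0.01. In TPM it was called lower, at −0.23. HNRNPL was at 26.5 and 24.0 FPKM in shCON and 28.0 and 29.5 in shFAM49B, with a limma adjusted p of 0.0914. HNRNPR lay between 27.7 and 30.8 FPKM, with a log2 fold change of −0.10, and was called lower in TPM at −0.34.

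**Figure D3:**
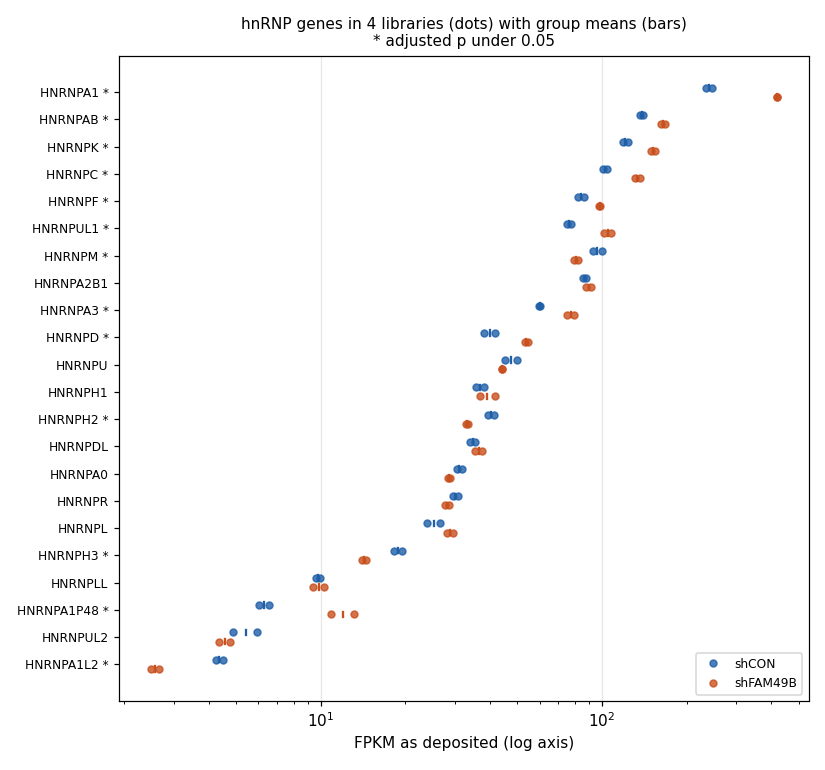
Deposited FPKM of the 22 tested hnRNP genes on a log axis, ordered by mean level, with 1 dot per library, bars at group means (blue shCON, orange shFAM49B) and stars at genes with an adjusted p under 0.05. HNRNPA1 lies farthest right, with the shFAM49B libraries at 420 and 417, and the low copies HNRNPA1P48 and HNRNPA1L2 shift in opposite directions.

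Summed hnRNP levels were 1356 and 1316 FPKM in shCON and 1649 and 1660 in shFAM49B, 1.24-fold higher, and 1.13-fold higher with HNRNPA1 left out. As a share of all FPKM the family was at 0.540% and 0.531% in shCON and 0.567% and 0.553% in shFAM49B, which is 1.05-fold higher. The plot of changes with both scalings shows the same for single genes, since rises of less than about 0.2 on the log2 scale turned negative in TPM.

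**Figure D4:**
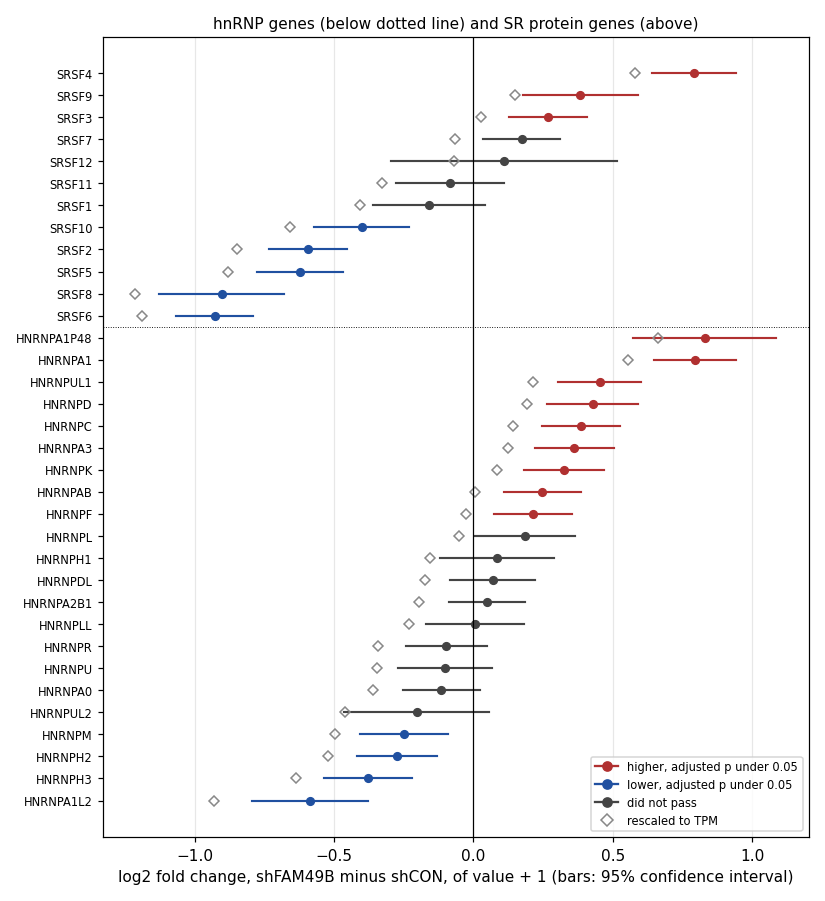
Log2 fold change of the 34 tested members, shFAM49B minus shCON, from FPKM + 1 (filled dots with 95% confidence intervals; red higher, blue lower, grey did not pass) and from TPM + 1 (open diamonds). SR genes are above the dotted line, where SRSF4 at 0.79 and SRSF6 at −0.93 are the extremes. Diamonds lie left of the dots, and those of HNRNPF, HNRNPL and SRSF7 fall below 0.

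Other measures touch how these values are read. The gene length behind each FPKM equals the union of all annotated exons for all 39 members, retained-intron transcripts included. For HNRNPU that length is 22512 of a span of 23923 bases, so its level per length is taken over most introns as well as exons. All 12 SRSF genes have an annotated transcript subject to nonsense-mediated decay (NMD), against 51.9% of all 27 hnRNP genes, untested ones included. The share was 35.65% of all protein-coding genes and 42.8% of those that averaged 1 FPKM or more. A gene level does not separate such transcripts from productive ones. Of 126 pseudogene rows of both families 11 were tested, of which 1 rose (HNRNPKP4, limma adjusted p = 0.0225) and 2 fell (HNRNPCP1 and HNRNPA1P59, limma adjusted p = 0.0182 and 0.0430). The shares of all tested genes were 26.4% higher and 15.8% lower. HNRNPCP1 passed the filter of a mean of 1 FPKM only through the shCON libraries, so its call depends on that filter. HNRNPKP4 did not pass in TPM, where 0 rose and 3 fell among the tested pseudogenes (11.6% and 31.7% of all tested genes). The most highly expressed were HNRNPCP2, at 14.0 and 11.0 FPKM in shCON and 16.1 and 16.0 in shFAM49B, and HNRNPA1P10, at 9.12 and 6.63 against 9.69 and 7.71. Neither passed (limma adjusted p = 0.0579 and 0.544).

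The stretches just upstream of SRSF4 and SRSF6 are shown because these relatives changed most in opposite directions. Each holds 150 bases of RefSeq sequence (GRCh38.p14) on the gene's strand, upstream of both the RefSeq and the GENCODE start, with matches to the 5 motifs searched in capitals.
SRSF4, chr1:29181988-29182137, minus strand: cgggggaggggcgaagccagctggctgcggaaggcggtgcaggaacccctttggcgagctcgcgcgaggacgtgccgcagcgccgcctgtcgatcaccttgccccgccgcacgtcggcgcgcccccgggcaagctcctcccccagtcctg
SRSF6, chr20:43457746-43457895, plus strand: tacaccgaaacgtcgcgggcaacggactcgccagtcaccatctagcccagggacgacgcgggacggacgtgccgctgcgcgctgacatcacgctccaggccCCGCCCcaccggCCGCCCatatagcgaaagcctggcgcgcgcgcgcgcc
The SRSF6 stretch holds 2 GC boxes (GGGCGG, read on the other strand), and the SRSF4 stretch has no match. The whole RefSeq window of SRSF4, which also covers bases not shown, does hold a GC box and an ETS motif. G and C make up 72.0% of the SRSF6 stretch and 75.3% of the SRSF4 stretch. RefSeq windows, reaching from 250 bases before to 50 bases after a start, were present for 35 members, 49 windows in all. GGGCGG on either strand was in 59.2% of them and in 45.0% of 35116 windows of all genes. The CCAAT box (CCAAT) was in 51.0% against 34.6%, the E-box (CACGTG) in 16.3% against 7.26%, the TATA box (TATAAA) in 12.2% against 11.5% and the ETS motif (CCGGAAG) in 10.2% against 10.3%. The windows of all genes were not limited to genes expressed here, and members with several windows count more than once. No motif searched contains another. Of the members with a window, 10 rose and 8 fell. E-boxes were in windows of 3 that rose and 3 that fell, GC boxes of 8 and 4, CCAAT boxes of 7 and 3, TATA boxes of 4 and 0 and ETS motifs of 3 and 1.

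The enzymes that phosphorylate, dephosphorylate or import SR proteins are a companion group, and 9 of its 14 tested genes rose and 1 fell, with a median log2 fold change of 0.47 (in TPM 5 and 1). For this list and those that follow, the share of all tested genes is 26.4% higher and 15.8% lower as deposited, and 11.6% higher and 31.7% lower in TPM. TNPO3, the import receptor of phosphorylated SR proteins, was at 24.5 and 22.3 FPKM in shCON and 33.7 and 36.6 in shFAM49B. TNPO2, an import receptor for hnRNP cargo, went from 16.4 and 16.7 to 26.6 and 27.2 FPKM, and the phosphatase subunit PPP1CC from 46.3 and 45.6 to 67.0 and 64.7. The kinase PRPF4B went from 12.8 and 13.1 to 22.9 and 18.9 FPKM. For these 4 genes, those with the smallest p on the list, limma adjusted p was 0.00443, 0.00190, 0.00280 and 0.00644. Without shFAM49B 2 the count of rises was 5, and the fall did not pass without shCON 1, shFAM49B 1 or shFAM49B 2 (0 genes).

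Among 38 core spliceosome genes, which encode parts of the small nuclear ribonucleoproteins and the catalytic complex, 26 rose and 2 fell, with a median of 0.30 (26.4% and 15.8% of all tested genes). In TPM 12 rose and 6 fell (11.6% and 31.7%). Without shCON 1, shFAM49B 1 or shFAM49B 2 the rises numbered 17, 17 and 16, and without any of the 4 libraries in turn 1 gene fell. The U1 proteins SNRPA, at 50.5 and 53.6 FPKM in shCON and 91.9 and 98.4 in shFAM49B, and SNRNP70, at 49.5 and 49.3 against 76.8 and 81.6, were among the 4 with the smallest p. The U2 proteins SF3A1 and SF3B3 were the others, with log2 fold changes of 0.71 and 0.64. Of 44 tested genes for other splicing regulators 19 rose and 5 fell, with a median of 0.07 (26.4% and 15.8% of all tested genes), and in TPM 12 rose and 15 fell (11.6% and 31.7%). Without shFAM49B 2 the rises numbered 11, and without shCON 1 the falls numbered 3. Their smallest p values were those of NONO (136 and 133 FPKM against 249 and 257), RNPS1 (36.1 and 37.3 against 65.6 and 66.3), SRRM1 and PCBP1, all higher. NONO is a paraspeckle protein, RNPS1 and SRRM1 join SR proteins on spliced mRNA, and PCBP1 binds C-rich RNA. Named after its values were seen, ESRP1, an epithelial splicing regulator, fell from 2.43 and 1.79 FPKM to 0.120 and 0.0822, the largest change on this list (log2 fold change −1.49, limma adjusted p = 0.00380). ESRP1 passed the filter of a mean of 1 FPKM only through the shCON libraries, so its test and rank depend on that filter. Its relative ESRP2 was at 0.895 and 0.807 FPKM in shCON and 0.0703 and 0.0841 in shFAM49B, below the level tested.

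The arginine methyltransferase list held 9 genes for enzymes that modify hnRNP and Sm proteins, counting WDR77, a cofactor of PRMT5. Of these 3 rose and 1 fell (26.4% and 15.8% of all tested genes), and in TPM 3 rose and 3 fell (11.6% and 31.7%). PRMT1, the main enzyme for asymmetric methylation of hnRNPs, went from 51.3 and 53.8 FPKM to 70.1 and 72.8, and PRMT5 from 39.3 and 37.6 to 51.7 and 53.3. CARM1 also rose and PRMT9 fell, by log2 fold changes of 0.49 and −0.56. Of 15 genes for NMD factors, which degrade the unproductive transcripts of SR genes, 3 rose and 4 fell with a median of 0.01 (26.4% and 15.8% of all tested genes), and in TPM 0 rose and 7 fell (11.6% and 31.7%). CASC3 rose by 0.34 on the log2 scale, and EIF4A3 and SMG5 fell by 0.27 and 0.31. Without shCON 2 no NMD gene passed in either direction, without shFAM49B 2 none rose and 1 fell, and without shCON 1 or shFAM49B 1 none fell.

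**Figure D5:**
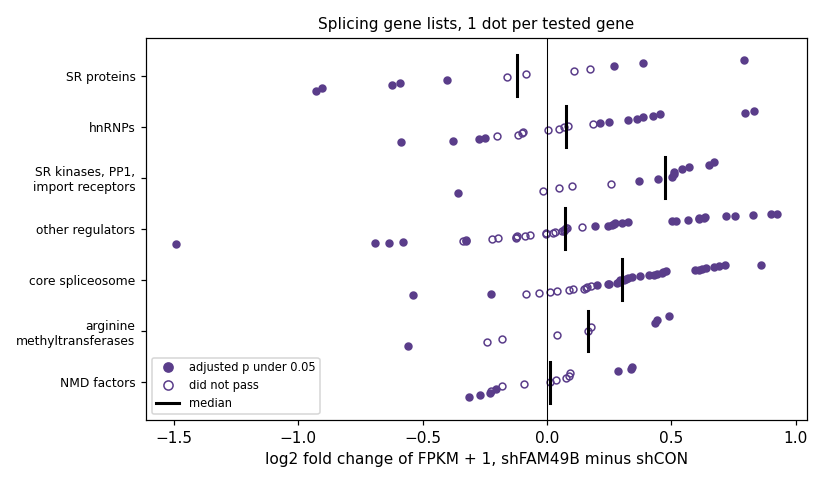
Log2 fold change of FPKM + 1, shFAM49B minus shCON, for each tested gene of the SR, hnRNP and companion lists (filled dots adjusted p under 0.05, open dots did not pass, black bars medians). The median lies at −0.12 for SR genes, 0.08 for hnRNPs, 0.47 for kinases, phosphatases and import receptors and 0.30 for the core spliceosome; medians of all lists are lower in TPM.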

How the data were processed

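Per the labels' protocols, a NEBNext Ultra kit turned total RNA into sequencing libraries. The authors deposited 1 table of FPKM values. Which aligner and counter made it is not given in the sources used here. Mouse builds, GRCm38 and mm10, appear in the submitters' processing notes, but all 58735 identifiers are human Ensembl genes with GENCODE 29 coordinates on GRCh38. FPKM times gene length gave whole reads for 100% of values (tolerance 0.001 of 1 read). Against these reads, the authors' denominators were larger in shCON (ratios 1.08 and 1.10) and smaller in shFAM49B (0.941 and 0.919), so the deposited scale is not plain depth. They equalled denominators computed from median ratios of gene reads, over the 20791 genes with reads in every library. The 13775 genes averaging 1 FPKM or more were tested with limma 3.58.1 (R 4.3.3, trended empirical Bayes) on log2 of FPKM + 1, 2-sided, with Benjamini-Hochberg adjustment over all of them. Fold changes on that scale understate low genes. Coding sequences were aligned with edlib 1.3.9.post1.

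Members and lists were chosen with earlier results of these data known. Library values were given for changed members, the 2 highest and the least changed of each family, and for up to 4 companions with the smallest p. The test was also run on simulated reads with an assumed spread and far fewer changed genes than were called here. That run does not measure the error rate of these calls, and its outcome is not reported. Replicates differed by more than counting noise, with a chi-square per gene of 3.90 in shCON and 3.48 in shFAM49B. Groups and numbers came from sample titles. Alternatives covered the pseudocount, the filter, 3 other scalings, a replicate block and leaving out each library. RefSeq promoter windows of HNRNPA1, HNRNPA1P48, HNRNPCL3 and SRSF2, and protein sequences, were not used here. A few items are not reported here.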

Additional observations from a re-analysis of the deposited data

How the results depend on the processing

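With 2 libraries a group the design has 2 residual degrees of freedom, so small changes cannot be separated from replicate spread, and leaving out a library assumes that the lone sample varies like the other group. Scaling mattered most. A pseudocount of 0.1 moved no count by over 1.5 times and reversed no member. The planned limma-voom fit with TMM factors is not reported: whole reads were recovered, but count normalization was kept to tables deposited as counts.

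Rescaled to TPM, 1597 genes were higher and 4362 lower, 1 SRSF gene was higher (family median −0.37), and 3 hnRNP genes were higher and 10 lower (median −0.16). The companion counts were 5 higher for kinases, phosphatases and import receptors, 12 higher and 15 lower for other regulators, 12 and 6 for the core spliceosome, 3 lower for methyltransferases, and 0 higher and 7 lower for NMD factors. With FPKM per recovered reads, 1722 genes were higher and 4173 lower, 1 SRSF gene was higher (median −0.34) and 4 hnRNP genes were higher and 9 lower (median −0.14). The companion counts, in the same order, were 5, then 12 and 13, 13 and 6, 3 lower, and 0 and 7. Under quantile normalization 1 SRSF gene was higher (median −0.33) and 2 hnRNP genes were higher and 9 lower (median −0.14). It gave 11 and 10 for other regulators, 9 and 4 for the core spliceosome, 3 lower on the methyltransferase list and 0 higher NMD factors. The share of all tested genes called under quantile normalization is not given, so these counts lack that background. With no filter on low values 2185 genes were higher and 1378 lower. No kinase-group gene was then lower (0), 16 core spliceosome genes were higher and 1 lower, and 2 NMD factors were lower. With a mean of at least 5 FPKM required, 1322 genes were lower, the hnRNP median was 0.13 and 2 genes of the methyltransferase list were lower.

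Signs of small changes turned with scaling, and the cause was not tested beyond the downward shift itself. In TPM and per recovered reads the log2 fold changes were −0.20 and −0.17 for HNRNPA2B1, −0.17 and −0.15 for HNRNPDL, −0.0282 and −0.00881 for HNRNPF, −0.16 and −0.14 for HNRNPH1, −0.0531 and −0.0331 for HNRNPL, −0.23 and −0.20 for HNRNPLL, −0.0700 and −0.0411 for SRSF12, −0.0675 and −0.0475 for SRSF7 and −0.0893 and −0.0653 for HNRNPA1P10. Under quantile normalization they were −0.30 for HNRNPA2B1, −0.22 for HNRNPAB, −0.0515 for HNRNPC, −0.13 for HNRNPDL, −0.13 for HNRNPF, −0.14 for HNRNPH1, −0.13 for HNRNPK, −0.0421 for HNRNPLL, −0.0028 for SRSF3 and −0.0829 for SRSF7.

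Leaving out each library in turn gave 2039 to 2590 genes higher and 1064 to 1613 lower. SRSF genes came to 1 to 3 higher and 5 lower each time (median −0.19 to −0.05), and hnRNP genes to 6 to 7 higher and 2 to 4 lower (median 0.0456 to 0.130). The kinase group had 5 to 7 higher and 0 to 1 lower, other regulators 11 to 14 and 3 to 7, the core spliceosome 16 to 19 and 1, and NMD factors 0 to 3 and 0 to 1. Signs turned within the ranges of HNRNPA1P10 (−0.0684 without shCON 2 to 0.34 without shCON 1), HNRNPH1 (−0.00462 without shFAM49B 1 to 0.17), HNRNPLL (−0.0540 without shFAM49B 2 to 0.0655), SRSF11 (−0.17 to 0.00501 without shFAM49B 2) and SRSF12 (−0.0465 without shCON 1 to 0.26).

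Libraries with the same number did not deviate together (correlation −0.01), so the number is not taken as a pairing. With the replicate number as a block, 3429 genes were higher and 2036 lower, with 3 and 5 SRSF genes and 9 and 4 hnRNP genes, and no member changed its call.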
